A study of Homo sapiens with 6 samples.

Results

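The CEP genes are named for centrosomal proteins, and most of them take their number from the approximate mass of the protein. Every gene was included whose symbol is CEP followed by digits, with or without further letters and without a pseudogene suffix, and that was measured by at least 1 probe set carrying that symbol alone. This gave 36 of the 18132 genes measured, covered by 119 of the 49293 probe sets tested. The cells were U87, a long-established glioma line of human origin, grown in DMEM with serum. The cells of 3 arrays had received lentivirus encoding an shRNA that targets PCGF1 (U87-PCGF1-shRNA), and those of the other 3 had received a negative control lentivirus (U87-NC), so that all 6 arrays come from lentivirus-treated cells. The labels give no second hairpin and no time after transduction. The names of all knockdown arrays also carry T0 and those of all control arrays T1, so anything these marks stand for cannot be told apart from the knockdown. PCGF1 is the Polycomb protein that defines the repressive chromatin complex PRC1.1, and the design asks which genes differ when it is depleted.

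The centrosome is the main microtubule organiser of an animal cell. It holds a pair of centrioles, barrels of microtubules that are copied once per cell cycle, inside a pericentriolar matrix that nucleates microtubules through the gamma-tubulin ring complex. The older centriole carries distal and subdistal appendages, can template a primary cilium, and is tied to its partner by a fibrous linker that is dissolved before mitosis. CEP proteins act at each of these sites, and transcripts of some of them, such as CEP55, accumulate in dividing cells.

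Each deposited value is a log2 signal from which the probe set's median over the 6 arrays has been taken, so it compares arrays and gives no absolute expression level. For the same reason the absolute level of glial markers in these cells could not be checked, and the CEP genes cannot be ranked by abundance. A gene's value is the mean of its probe sets. The targeted gene PCGF1 stood at -0.27, -0.13 and -0.19 in knockdown replicates 1 to 3 and at 0.13, 0.27 and 0.29 in the control replicates. The groups did not overlap, and the log2 fold change, which is always knockdown minus control, was -0.43 ± 0.06 (SE, limma adjusted p = 0.00410). The exact permutation test gave p = 0.1, the smallest that 3 against 3 arrays allow. The array medians lay between -0.00228 and 0.00394, and the first principal component separated the 2 groups.

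Most CEP genes leaned lower in the knockdown arrays, by small amounts. At an adjusted p under 0.05 by limma, 5 of 36 were lower, namely CEP76, CEP55, CEP170, CEP112 and CEP43, and 2 were higher, CEP126 and CEP68. That is 13.9% lower and 5.56% higher, where 4.63% of all genes were called lower and 6.36% higher. The share called higher was thus close to that of all genes. The change was below 0 for 28 of the 36 genes (77.8%, against 53.4% of all genes), and the median log2 fold change was -0.08 against -0.0081 over all genes. The groups did not overlap for 15 members that were lower in the knockdown (41.7%, with 15.5% of all genes) and for 3 that were higher (8.33%, with 17.1% of all genes). Of these 18, 10 lower and 1 higher did not pass the adjusted test. At an unadjusted p under 0.05, 14 members were lower and 3 higher, where 12.4% of all genes were lower and 14.2% higher. Changes ranged from -0.23 to 0.30 on the log2 scale, so the largest was 1.23-fold. These are counts over a family whose members can share regulation, and the family was not tested as a set. The count of CEP genes called lower was 2, 0 and 0 without control replicates 1, 2 and 3, and 2, 3 and 1 without knockdown replicates 1, 2 and 3. The count called higher was 0, 0 and 2 and then 2, 1 and 0 in the same order. Without control replicate 2 or 3, 11 members were lower at an unadjusted limma p under 0.05, against 14 with all arrays. A total of 3 members were higher at that level without control replicate 1, control replicate 2 or knockdown replicate 3. The share of all genes at that level was not counted in fits without an array, so these counts have no background beside them.

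**Figure D1:**
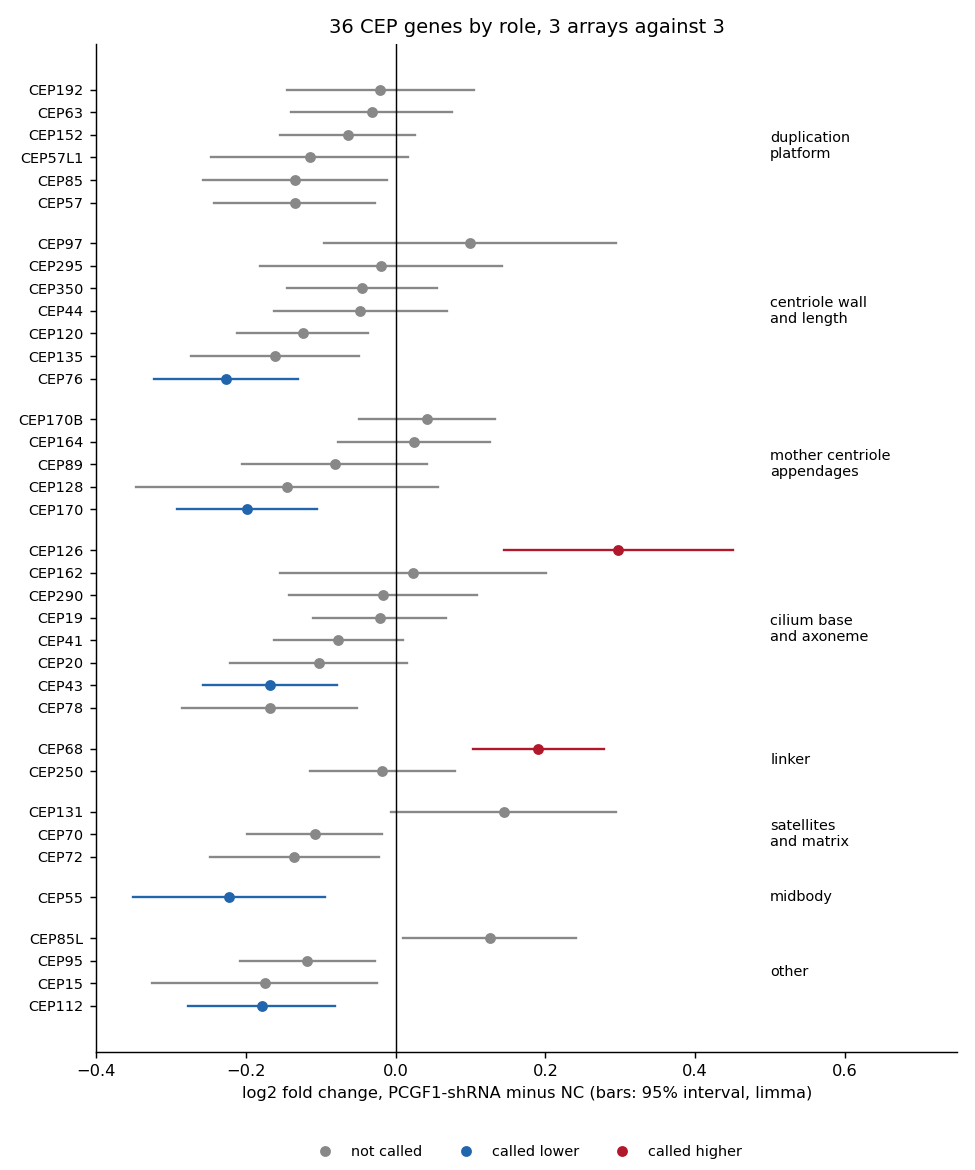
Log2 fold change (knockdown minus control, x axis) of each of the 36 CEP genes, grouped by role, with limma's 95% interval as a bar. The 5 genes called lower are blue, the 2 called higher are red, and 28 of 36 points lie below 0.

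The promoters of the 4 called CEP genes with the largest changes, and of CEP68 as the other gene that was higher, are shown so that motifs of cell cycle promoters can be seen in them. Windows from 250 bases before to 30 bases after the RefSeq transcription start (build GRCh38.p14) were searched on both strands for TTTGAA, the core of the cell cycle homology region (CHR) found in many mitotic gene promoters, for CCAAT, the box bound by NF-Y, and for GCGGGAA, a core of E2F sites. None of the 3 motifs contains another. Capitals mark the matches in the windows of CEP55 (chr10:93496362-93496641, plus strand), CEP76 (chr18:12702748-12703027, minus strand, the more upstream of 2 listed starts), CEP170 (chr1:243255252-243255531, minus strand), CEP126 (chr11:101914760-101915039, plus strand) and CEP68 (chr2:65056166-65056445, plus strand), each given 5′ to 3′ along the gene.
CEP55: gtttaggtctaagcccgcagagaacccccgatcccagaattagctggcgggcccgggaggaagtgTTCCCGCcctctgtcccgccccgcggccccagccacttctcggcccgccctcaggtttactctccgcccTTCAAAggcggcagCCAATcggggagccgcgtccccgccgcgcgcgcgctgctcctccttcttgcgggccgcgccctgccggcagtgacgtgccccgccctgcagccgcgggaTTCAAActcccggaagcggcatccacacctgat
CEP76: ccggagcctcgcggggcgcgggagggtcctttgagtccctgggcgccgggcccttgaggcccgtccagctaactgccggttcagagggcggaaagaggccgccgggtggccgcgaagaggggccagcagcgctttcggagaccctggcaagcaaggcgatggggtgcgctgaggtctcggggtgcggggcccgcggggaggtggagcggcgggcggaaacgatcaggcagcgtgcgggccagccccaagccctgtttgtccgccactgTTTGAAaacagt
CEP170: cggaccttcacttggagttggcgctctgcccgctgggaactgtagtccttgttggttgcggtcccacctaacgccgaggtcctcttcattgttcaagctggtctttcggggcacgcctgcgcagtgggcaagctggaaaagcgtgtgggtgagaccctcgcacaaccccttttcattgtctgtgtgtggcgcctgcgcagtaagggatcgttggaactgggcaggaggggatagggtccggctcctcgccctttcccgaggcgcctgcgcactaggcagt
CEP126: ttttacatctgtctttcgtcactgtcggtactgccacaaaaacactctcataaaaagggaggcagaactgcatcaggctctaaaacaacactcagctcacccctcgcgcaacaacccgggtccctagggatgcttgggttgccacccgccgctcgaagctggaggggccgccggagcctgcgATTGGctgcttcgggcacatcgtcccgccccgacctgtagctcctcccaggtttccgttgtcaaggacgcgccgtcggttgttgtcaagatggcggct
CEP68: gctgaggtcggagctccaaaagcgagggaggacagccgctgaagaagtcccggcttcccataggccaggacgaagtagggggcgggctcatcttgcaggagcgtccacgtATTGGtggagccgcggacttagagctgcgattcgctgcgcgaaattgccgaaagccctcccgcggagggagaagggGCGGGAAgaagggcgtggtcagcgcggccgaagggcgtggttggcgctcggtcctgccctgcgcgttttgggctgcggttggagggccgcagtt

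CEP55 held all 3 motifs. Counted from the start, its CHR letters began at -116 and -3, both on the reverse strand, its CCAAT box at -102 and its E2F core at -185, also on the reverse strand. CEP76 held a CHR match 19 bases into the transcript and neither of the others. The window of CEP170 held none of them. Both genes that rose held a CCAAT box on the reverse strand, CEP126 at -68 and CEP68 at -140, and CEP68 also held an E2F core at -64. RefSeq windows were found for 32 of the 36 genes, 40 windows in all. CHR letters occurred in 37.5% of these windows against 14.5% of the 35116 windows in the table, CCAAT in 47.5% against 33.6%, and the E2F core in 25% against 6.15%. Those 35116 windows include ones of antisense and divergent transcripts, such as EXOC1-AS1 and CEP72-DT, and a gene can have several. The shares were not compared with protein-coding genes alone and were not tested. Among the 7 called genes, 3 held CHR letters (CEP55, CEP76 and CEP112), 3 held CCAAT and 2 held the E2F core. Among all 32 CEP genes with a window, 14 held CHR letters, 17 held CCAAT and 9 held the E2F core. A match is a description of letters and says nothing of binding in these cells.

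CEP55 recruits the ESCRT machinery to the midbody, the bridge that is cut when daughter cells separate, and was called lower. CEP55 stood at -0.04, -0.21 and -0.11 in knockdown replicates 1 to 3 and 0.06, 0.17 and 0.08 in the control replicates. The groups did not overlap, with knockdown replicate 2 lowest and control replicate 2 highest. The difference between the groups was -0.22 ± 0.06 on the log2 scale (SE, limma adjusted p = 0.0407), or 85.7% of the control level, and its probe sets stood at -0.25 and -0.20. This call was lost without any control replicate or without knockdown replicate 2 or 3 (adjusted p 0.0694 to 0.120). It was also lost where only the most variable probe set was used (adjusted p = 0.0508), and where _s_at and _x_at probe sets, which can hybridise to several transcripts, were dropped (adjusted p = 0.126).

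Other genes of cell division were measured beside CEP55. In the lists from here on, genes that fell or rose are those called lower or higher at an adjusted p under 0.05 by limma. Of all genes, 4.63% fell and 6.36% rose, and 12.4% were lower and 14.2% higher at an unadjusted p under 0.05. Of 20 measured cytokinesis and abscission genes 4 fell and 0 rose, with a median of -0.13. At an unadjusted p under 0.05, 11 of the 20 were lower and 1 higher. RACGAP1, which with KIF23 forms the centralspindlin complex, fell by 0.41 (SE 0.04, adjusted p = 0.000984). VPS4A, an ATPase that disassembles ESCRT filaments, fell by 0.48, and the mitotic kinase AURKB and the RhoA activator ECT2 by 0.33 and 0.18. The ECT2 call was lost in 8 of 13 alternative settings, the other calls named here in none. Among 23 G2/M phase markers 14 fell and 0 rose (median -0.21, with 17 lower and 0 higher at an unadjusted p under 0.05). Mean log2 values of these markers lay between -0.11 and -0.10 on the knockdown arrays and between 0.08 and 0.12 on the control arrays. Among 20 G1/S markers 9 fell and 0 rose (median -0.16, with 13 lower and 0 higher at an unadjusted p under 0.05). Without single arrays, 8 to 12 of the G2/M markers and 3 to 5 of the G1/S markers were called lower, the fewest G2/M markers without knockdown replicate 3 and 9 without control replicate 2. In RNA from a whole culture, fewer cells in a phase and less transcript per cell cannot be told apart, and the part of cell cycle phase in the CEP results was not tested.

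**Figure D2:**
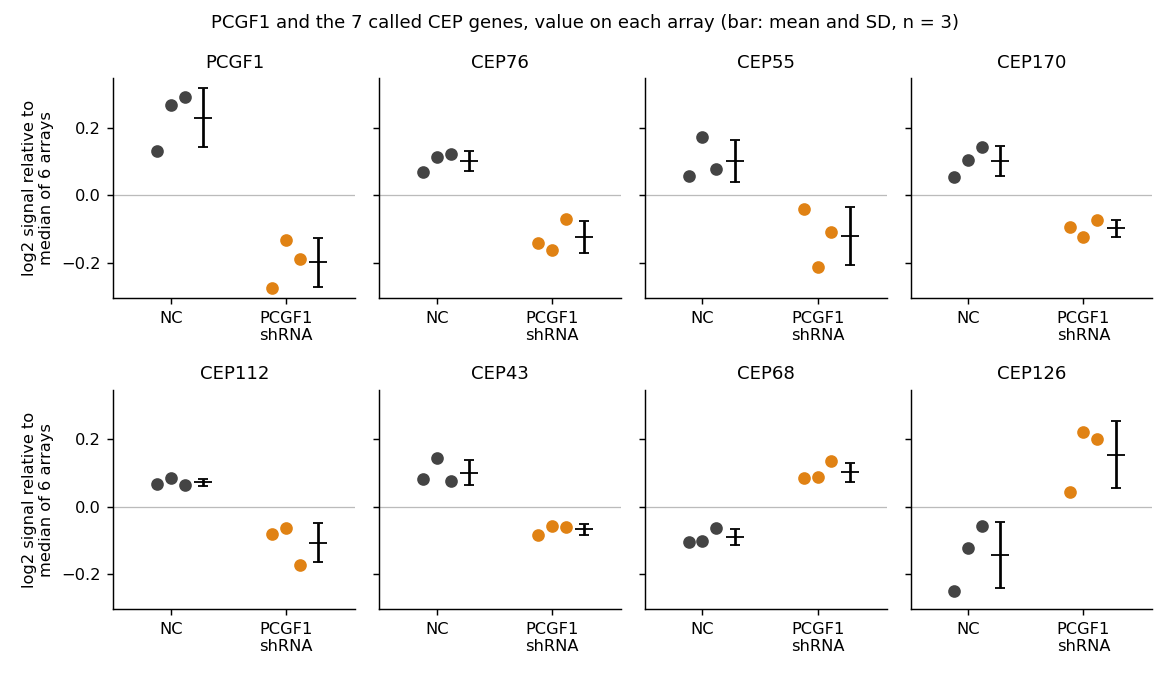
Log2 signal relative to the median of 6 arrays (y axis) for PCGF1 and the 7 called CEP genes, 1 point per array, with the mean and SD of each group of 3 beside the points. In each panel the knockdown points (orange) and control points (dark grey) do not overlap.

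Among the genes for the centriole wall and its length, 1 of 7 was called lower and 0 higher, and 3 were lower and 0 higher at an unadjusted p under 0.05. The shares of all genes were 4.63% and 6.36% called, and 12.4% and 14.2% at an unadjusted p under 0.05. Each role, here and below, holds at most 8 genes, too few to set its called count apart from the share of all genes. CEP76, which restrains the re-duplication of centrioles, had the largest fall of the family. It stood at -0.14, -0.16 and -0.07 in the knockdown replicates and at 0.07, 0.11 and 0.12 in the control replicates. All knockdown arrays were below all control arrays. The difference between the groups was -0.23 ± 0.04 on the log2 scale (SE, limma adjusted p = 0.0137), or 85.5% of control, and its 3 probe sets ran from -0.34 to -0.08. The adjusted p rose to 0.0526 and 0.0545 without control replicates 2 and 3. Its most variable probe set taken alone gave -0.34.

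CEP135, a component of the centriole core, and CEP120, needed for centriole elongation, did not pass. CEP135 stood at -0.05, -0.08 and -0.20 against 0.02, 0.07 and 0.06, and CEP120 at -0.10, -0.09 and -0.06 against 0.08, 0.02 and 0.04. The groups were apart for both, and the fold changes were -0.16 (limma adjusted p = 0.0733) and -0.12 (adjusted p = 0.0776). CEP44 and CEP295, which act as a new centriole matures into a centrosome, and CEP350, a large microtubule-anchoring protein, lay between -0.05 and -0.02. CEP97, the partner of the centriole cap protein CP110, was at 0.10 with an interval of -0.10 to 0.29, the groups overlapping. In the separate list of other centriole duplication and elongation genes, 6 of 26 fell and 0 rose (8 lower and 0 higher at an unadjusted p under 0.05), with a median of -0.04. The shares called were 23.1% and 0%, where 4.63% and 6.36% of all genes were called lower and higher. PLK4, the kinase that starts centriole duplication, fell by 0.40 (SE 0.05, adjusted p = 0.00378), RTTN by 0.26, the centriole wall protein POC1B by 0.25, and TUBE1, epsilon tubulin, by 0.22. PLK4 was called in 13 of 13 alternative settings, whereas the call was lost in 5 for RTTN, 2 for POC1B and 9 for TUBE1.

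The 6 genes of the platform on which new centrioles form all had a fold change below 0, and none of them passed the test (0 lower and 0 higher by limma, with 2 lower and 0 higher at an unadjusted p under 0.05). CEP152 and CEP192 are the receptors that bring PLK4 to the centriole, and CEP57 and CEP63 hold CEP152 in place. CEP57, measured by 9 probe sets, stood at -0.01, -0.10 and -0.06 against 0.01, 0.13 and 0.10. Its groups were just apart and its fold change was -0.13 (limma adjusted p = 0.108), over probe sets from -0.32 to 0.07. Its paralogue CEP57L1 was at -0.11, and CEP85, which binds the PLK4 partner STIL, at -0.13. CEP152, CEP63 and CEP192 were at -0.06, -0.03 and -0.02. The 95% intervals of CEP152 (-0.15 to 0.03) and CEP192 (-0.15 to 0.10) both include 0.

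CEP170, a subdistal appendage protein that binds microtubules, was called lower, as 1 of 5 appendage genes, and 0 were higher. It stood at -0.10, -0.12 and -0.07 in the knockdown replicates and at 0.05, 0.11 and 0.14 in the control replicates. The 2 groups did not overlap. The change was -0.20 ± 0.04 (SE, limma adjusted p = 0.0202), or 87.1% of control. The 4 probe sets were all lower but differed in size, from -0.37 to -0.05, and the most variable one alone gave -0.37. A further probe set that matches both CEP170 and its pseudogene CEP170P1 was left out of the average and was at -0.03 (adjusted p = 0.813 among single probe sets). The call was lost without control replicate 2 or 3 or any knockdown replicate (adjusted p 0.0530 to 0.0750). The paralogue CEP170B was at 0.04, with an interval of -0.05 to 0.13, and the difference between the paralogues was not tested. The distal appendage genes CEP164 and CEP89 were at 0.02 and -0.08, and CEP128, another subdistal appendage gene, at -0.14, with knockdown values spread from -0.24 to 0.10.

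Genes of the cilium base and axoneme went both ways, with 1 of 8 lower and 1 higher. CEP126, a microtubule-binding protein needed to form cilia, had the largest change of all 36 genes. It stood at 0.04, 0.22 and 0.20 in the knockdown replicates and -0.25, -0.12 and -0.06 in the control replicates. The groups were apart, with knockdown replicate 1 lowest of its group. The change was 0.30 ± 0.07 (SE, limma adjusted p = 0.0279), or 1.23-fold, and its 3 probe sets were all higher, from 0.15 to 0.46. The most variable probe set alone gave 0.46. The call was lost without control replicate 1 or 2 or knockdown replicate 2 or 3 (adjusted p 0.0685 to 0.0928).

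CEP43, also known as FOP, acts with CEP350 and CEP19 at the mother centriole when a cilium is started, and was called lower. It stood at -0.09, -0.06 and -0.06 in the knockdown replicates and at 0.08, 0.14 and 0.08 in the control replicates, without overlap. The change was -0.17 ± 0.04 (SE, limma adjusted p = 0.0313), with all 4 probe sets lower, from -0.24 to -0.08. The call was lost on leaving out each array in turn (adjusted p 0.0662 to 0.104), on using the most variable probe set (adjusted p = 0.0645) and when probe sets ending in _s_at or _x_at were dropped (adjusted p = 0.0534). CEP19 and CEP350 were at -0.02 and -0.04, and the FOP-related CEP20 at -0.10. CEP78, a centriolar protein linked to cilium length, had the same fold change as CEP43 to 2 decimals, -0.17, but a wider spread (SE 0.05, adjusted p = 0.0731). CEP41, needed for glutamylation of ciliary tubulin, was at -0.08 with groups apart.

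CEP290, a transition zone protein, had a mean fold change of -0.02, but its 4 probe sets differed widely. One was called lower when tested on its own (-0.36, adjusted p = 0.0479) and another was at 0.31 (adjusted p = 0.296), which is also the CEP290 value when its most variable probe set stands alone. The remaining probe sets lay nearer the mean, at -0.08 and 0.06. CEP162, which marks the axoneme, was at 0.02, with knockdown replicate 1 at 0.22 and the other knockdown arrays at -0.07 and -0.05. In the list of ciliary transition zone genes, 1 of 16 fell and 1 rose, with a median of -0.0031 (2 lower and 2 higher at an unadjusted p under 0.05). The shares called, 6.25% each way, were close to the 4.63% and 6.36% of all genes called lower and higher. IQCB1, a binding partner of CEP290, fell by 0.28 and AHI1 rose by 0.19. The IQCB1 call was lost in 3 of 13 alternative settings and the AHI1 call in 9.

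**Figure D3:**
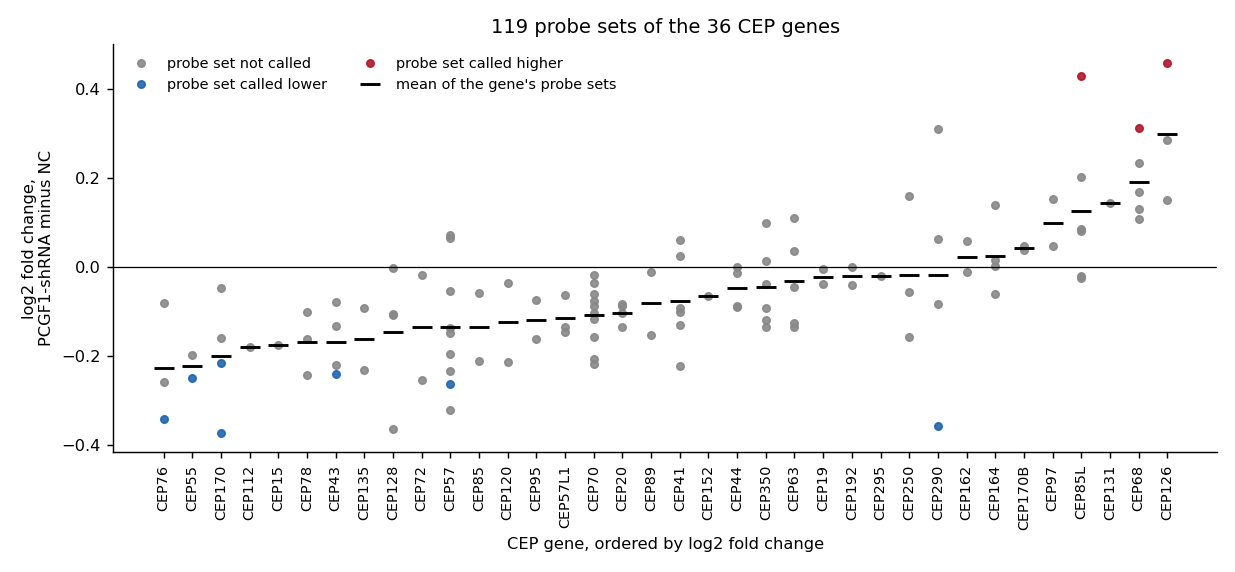
Log2 fold change (y axis) of the 119 probe sets of the 36 CEP genes, ordered by the mean of each gene's probe sets (black bars). Probe sets of CEP76, CEP170 and CEP43 lie on the lower side and those of CEP68 and CEP126 on the upper side, whereas CEP290 has one called lower at -0.36 and one uncalled at 0.31.

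CEP68, which builds the linker between centrioles and is removed during mitosis, was called higher. It stood at 0.09, 0.09 and 0.13 in the knockdown replicates and at -0.10, -0.10 and -0.06 in the control replicates. Its groups were apart, with an SD of 0.03 and 0.02 (n = 3 each). The change was 0.19 ± 0.04 (SE, limma adjusted p = 0.0182), and all 5 probe sets were higher, from 0.11 to 0.31. Dropping _s_at and _x_at probe sets left a fold change of 0.11 (adjusted p = 0.315), and its most variable probe set gave 0.31 (adjusted p = 0.0547). The call was also lost without control replicate 1 or 2 or knockdown replicate 3 (adjusted p 0.0585 to 0.0693). CEP250, the docking protein of the linker at the centriole end, was at -0.02 with overlapping groups, over probe sets from -0.16 to 0.16. In the list of other linker, appendage and satellite genes, 2 of 29 fell and 1 rose (5 lower and 4 higher at an unadjusted p under 0.05). The shares called, 6.90% and 3.45%, were near the 4.63% and 6.36% of all genes called lower and higher. SDCCAG8 and the distal appendage gene SCLT1 fell by 0.23 and 0.17, and BBS4, a BBSome subunit, rose by 0.18. The SDCCAG8 call was lost in 2 of 13 alternative settings, that of SCLT1 in 8 and that of BBS4 in 7.

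None of the 3 genes of satellites and pericentriolar matrix was called (0 lower and 0 higher by limma, with 2 lower and 0 higher at an unadjusted p under 0.05). CEP70, which binds gamma-tubulin and was measured by 10 probe sets, stood at -0.08, -0.03 and -0.06 against 0.02, 0.05 and 0.09. Its 10 probe sets were all lower, from -0.22 to -0.02, the groups did not overlap, and the fold change of -0.11 did not pass (limma adjusted p = 0.123). The satellite proteins CEP72 and CEP131 were at -0.13 and 0.14 (adjusted p = 0.122 and 0.204), the groups being apart for CEP72 and overlapping for CEP131. In the list of other pericentriolar material genes, 3 of 28 fell and 1 rose (9 lower and 3 higher at an unadjusted p under 0.05). The shares called were 10.7% and 3.57%, where 4.63% and 6.36% of all genes were called lower and higher. HAUS2, a subunit of the augmin complex, fell by 0.28 (SE 0.05, adjusted p = 0.0109), the spindle pole gene ASPM by 0.18 and the gamma-tubulin ring subunit TUBGCP3 by 0.17. TUBG2, the second gamma-tubulin gene, rose by 0.18. The HAUS2 call was lost in 1 of 13 alternative settings, and those of ASPM, TUBGCP3 and TUBG2 in 7 to 9.

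Of the 4 remaining genes, CEP112 was called lower and 0 were higher, with 3 lower and 1 higher at an unadjusted p under 0.05. CEP112 stood at -0.08, -0.06 and -0.17 in the knockdown replicates and at 0.07, 0.08 and 0.06 in the control replicates. The groups were apart, and the control values lay within an SD of 0.01. The change was -0.18 ± 0.04 (SE, limma adjusted p = 0.0358) and rests on 1 probe set, which was not called among single probe sets (adjusted p = 0.0786). The call was lost without any control replicate or without knockdown replicate 1 or 3 (adjusted p 0.0718 to 0.106). It was also lost when the most variable probe set stood for every gene (adjusted p = 0.114) and when _s_at and _x_at probe sets were dropped (adjusted p = 0.0518), although its own probe set was the same. CEP85L was at 0.13, opposite in sign to its paralogue CEP85, with groups apart but no call (limma adjusted p = 0.156). One of the 6 CEP85L probe sets was called higher on its own (0.43, adjusted p = 0.0226). CEP15 and CEP95 were at -0.17 and -0.12 without passing. Without knockdown replicate 2, whose CEP15 value of 0.01 lay within the control range, CEP15 was at -0.25 (adjusted p = 0.0312).

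**Figure D4:**
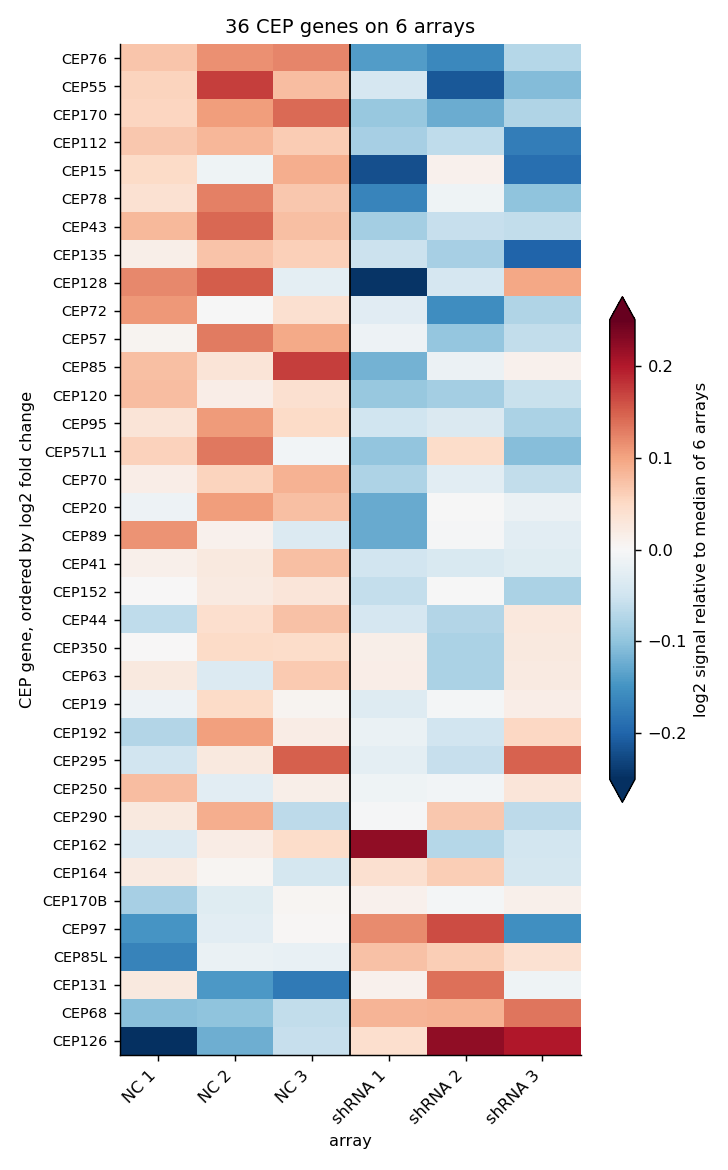
Log2 signal relative to the median of 6 arrays (colour) for the 36 CEP genes (rows, ordered by log2 fold change) on the 3 control and 3 knockdown arrays (columns). The upper rows are mostly red in the control arrays (left) and blue in the knockdown arrays, and the lowest rows, CEP68 and CEP126, show the reverse.

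The probe sets of a gene did not always share a sign. Of the 31 genes with several probe sets, 16 had all of them lower, 4 had all of them higher and 11 had both signs. The 6 called genes with several probe sets were all among the first 20. A call is made on the mean of these same probe sets, so their shared sign is not separate evidence. Over single probe sets, 85 of 119 were lower and 34 higher. When each probe set was tested on its own, 7 were called lower and 3 higher, where 2.94% and 4.3% of all probe sets were. They belonged to CEP43, CEP55, CEP57, CEP76, CEP170 (a pair) and CEP290 on the lower side and to CEP68, CEP85L and CEP126 on the higher side. Probe sets of 1 gene share its transcript and are not replicates.

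Several CEP genes share a start region with a neighbour. In the RefSeq promoter table, 14 of the 32 genes with a listed start had a gene on the opposite strand that starts within 1000 bases, and for 10 of them the neighbour was measured. Both genes were called lower in 2 of these pairs. Neither count was made over all genes, so neither can be read as particular to the CEP genes. CEP170 and SDCCAG8, a centriolar satellite gene, start 760 bases apart and were at -0.20 and -0.23 (limma adjusted p = 0.0109 for SDCCAG8). CEP76 and PSMG2, a proteasome assembly chaperone, start 265 to 319 bases apart and were at -0.23 and -0.15 (adjusted p = 0.0457 for PSMG2, a call lost in 9 of 13 alternative settings). In other pairs the values differed. FBXO8, which starts 244 bases from CEP44, fell by 0.29 (adjusted p = 0.00532) while CEP44 was at -0.05. SESN1, a stress-response gene 317 bases from CEP57L1, rose by 0.34 (adjusted p = 0.0158, lost in 4 of 13 alternative settings) while CEP57L1 was at -0.11. The neighbours of CEP19, CEP57, CEP63, CEP89, CEP95 and CEP290 were not called. Differences between the members of a pair were not tested.

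Across the 5 lists of other centrosome, cilium and cytokinesis genes, 16 of 119 measured genes fell and 3 rose, with a median of -0.04. These shares, 13.4% and 2.52%, stand beside 13.9% and 5.56% among the CEP genes and 4.63% and 6.36% over all genes. Without single arrays, 7 to 10 of the 119 were called lower and 0 to 1 higher (limma). Without control replicate 2 the counts were 27 lower and 10 higher at an unadjusted p under 0.05, with no share of all genes counted in that fit. The share called lower was greater in the G1/S and G2/M lists, at 45% and 60.9%. The difference in shares between lists was not tested. Members and lists were chosen with earlier results of these data known, so their shares are descriptions and not separate evidence.

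**Figure D5:**
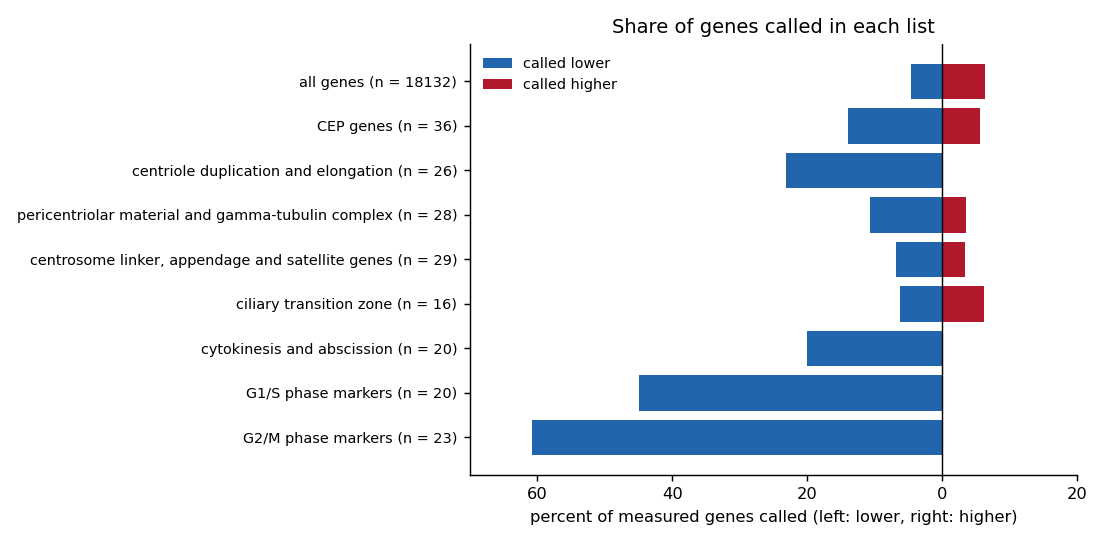
Percent of measured genes called lower (blue, to the left) and higher (red, to the right) by limma among all genes, the CEP genes, the 5 lists of other centrosome, cilium and cytokinesis genes and the G1/S and G2/M markers, with the number measured in brackets. The blue bar reaches 4.63% for all genes, 13.9% for the CEP genes and 60.9% for the G2/M markers.

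Markers of glial cells and glioma, the line's own lineage, and of other cell types were measured in lists of 6 to 8 genes. Over all genes, 4.63% were called lower and 6.36% higher, and 12.4% and 14.2% were so at an unadjusted limma p under 0.05. Lists of this size are too small to be set apart from these shares. Among glial and glioma markers 0 of 8 were called, and 0 at an unadjusted p under 0.05. Among endothelial markers 0 of 6 were called (1 lower at an unadjusted p under 0.05), among epithelial markers 0 of 6 (1 higher), and among 7 leukocyte markers 1 fell (2 lower at an unadjusted p under 0.05), CD79A, by 0.18, a call lost in 10 of 13 alternative settings. Mean log2 values of the leukocyte markers ran from -0.02 to -0.01 on the knockdown arrays and from 0.01 to 0.04 on the control arrays. Those of the endothelial markers ran from -0.06 to -0.02 and from 0.00 to 0.08. As a measure of RNA integrity, the difference between the ACTB probe sets at the 3′ and 5′ ends was greater in knockdown than in control arrays by 0.0778 ± 0.0426 (SE). For GAPDH it was greater by 0.0203 ± 0.0164, and the ranges of the groups overlapped for both. The part of either in the CEP results was not tested.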

How the data were processed

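RNA from 3 U87-PCGF1-shRNA and 3 U87-NC samples was measured on 6 Affymetrix arrays. The authors deposited log2 values made with RMA, per the submitters' processing notes, with no version; log base 2 is taken from RMA. The values show that each probe set was also centred on the median of its 6 arrays (largest departure 4.85e-07), a step no source describes. Leaving out 102 control probe sets gave 49293 for testing; the platform annotation, possibly out of date, gave 44988 of them a single gene symbol. Gene IDs of all 36 CEP genes gave the same symbol in RefSeq. Probe sets were averaged per gene, and the 18132 genes were fitted with limma 3.58.1 in R 4.3.3 (lmFit, eBayes, two-sided, no covariates), with Benjamini-Hochberg adjustment over all genes and a threshold of 0.05. The fit was tested on simulated data. The sample titles call the replicates biological, but no source states that they were independent cultures. The p-values cover only the variation among these arrays, and the number of arrays limits the precision. Named genes are all CEP genes, PCGF1 and up to 4 called genes of each other list by size, and promoters are shown for the called CEP genes with the largest changes in each direction; neighbours were chosen by position. Members and lists were chosen with earlier results of these data known. Alternatives were quantile normalization, median centring, array weights, a replicate block, the most variable probe set, no _s_at or _x_at probe sets, a robust variance model, single probe sets and leaving out each array. Promoter windows are from RefSeq (GRCh38.p14).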

Additional observations from a re-analysis of the deposited data

How the results depend on the processing

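PCGF1 kept its direction and call in all 13 settings. Quantile normalization, median centring, array weights, the robust variance model and single probe sets kept both CEP counts within 1.5 times. Leaving out 1 array gave 0 to 3 CEP genes lower, 0 to 2 higher and medians of -0.094 to -0.061, 395 to 590 for all genes called lower and 553 to 812 for all genes called higher, and 7 to 10 of the other centrosome, cilium and cytokinesis genes lower and 0 to 1 higher. The most variable probe set gave 2 CEP genes lower, a median of -0.14, and 10 list genes lower and 0 higher (12 higher at an unadjusted limma p under 0.05). Without _s_at and _x_at probe sets, 2 CEP genes were lower and 1 higher, the median was -0.093, and 8 list genes were lower. Array weights gave 5 list genes higher. The number of G1/S markers lower was 4 with the most variable probe set, 4 with the block and 5 without _s_at and _x_at probe sets, and of G2/M markers 9, 11 and 12.

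Under the replicate block, 1 CEP gene was lower and 1 higher, the number was 440 for all genes called lower and 596 for all genes called higher, and 10 list genes were lower and 0 higher (10 higher at an unadjusted limma p under 0.05). The calls of CEP76 and CEP126 held under the block, and those of CEP55 (limma adjusted p = 0.102), CEP170 (0.0574), CEP112 (0.0775), CEP43 (0.0800) and CEP68 (0.0560) were lost. Deviations of same-numbered arrays correlated at -0.0420, -0.0511 and 0.0116 across genes, and 2 of 6 arrays correlated best with their own number, so the numbers were not taken as pairs.

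Sign changes occurred for uncalled genes near 0. With the most variable probe set CEP63 was at 0.11, CEP162 at -0.012, CEP192 at 0.00045 and CEP290 at 0.31. CEP63 was at 0.0066 without _s_at and _x_at probe sets. Leaving out arrays gave -0.058 to 0.00095 for CEP63, -0.070 to 0.077 for CEP162, -0.065 to 0.023 for CEP192, -0.042 to 0.010 for CEP250, -0.058 to 0.020 for CEP290 and -0.082 to 0.034 for CEP295. The causes of these changes were not tested. Centred values leave signal over background unknown.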
